A study of Mus musculus with 12 samples.

Results

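CATAAA and GATAAA are variants of the canonical polyadenylation signal AATAAA that carry C or G in place of A at base 1 and match it at every other base. Sites were chosen by the hexamer that the authors' catalogue of poly(A) site clusters lists for them, with mitochondrial clusters left out. This gave 4660 sites of 145099, called members below, of which 2775 listed CATAAA and 1885 listed GATAAA. The remaining base-1 variant, TATAAA, with 6404 sites, and AATAAA itself, with 65222 sites, served as the sets to compare them with. No measured level entered the choice.

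The catalogue comes from 2P-seq, which reads polyadenylated RNA from the poly(A) tail into the transcript and so marks where transcripts end. All 12 libraries were from mouse embryonic stem cells, clones of the V6.5 line with a conditional Exosc3 knockout (Exosc3 CKO), where 0.1 μg/ml doxycycline (dox) keeps the RNA exosome subunit Exosc3 present. The 6 groups of 2 libraries were dox- for 3 days, dox+ for 3 days, dox- for 2 days with a U1 AMO, dox+ for 2 days with a U1 AMO, dox- for 2 days with a Scr AMO, and dox+ for 2 days with a Scr AMO. An AMO is an antisense morpholino oligonucleotide, delivered by nucleofection at 15 μM and left for 8 hours, here against U1 snRNP or with a scrambled sequence. How many clones there were is not stated in the labels. None of the 7 columns held a value of a library, so no site could be followed between the groups, the cell type could not be checked by its markers, and read depth is unknown. The spread between the 19 autosomes stands in for replicates below. Chromosomes are not biological replicates, and neighbouring sites are not independent, so their p-values tell only whether the autosomes shared a difference.

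In the RNA the canonical signal reads AAUAAA and is recognised by CPSF, a protein complex whose subunits CPSF30 and WDR33 contact its bases. The complex directs cleavage a short way downstream, where the poly(A) tail is added. Signals with a changed base are generally weaker in polyadenylation assays, and in genes with several poly(A) sites they are more common at the sites before the last. The hexamers compared here are shown to make the difference visible, as DNA from 5′ to 3′ with base 1 in capitals.

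C-first signal, listed for 2775 sites: Cataaa
G-first signal, listed for 1885 sites: Gataaa
T-first signal, listed for 6404 sites: Tataaa
Canonical signal, listed for 65222 sites: Aataaa

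C was more frequent than G at base 1. CATAAA made up 2.14% of the 129401 sites with a hexamer (95% Wilson interval 2.07 to 2.22%) and GATAAA 1.46% (interval 1.39 to 1.52%), a ratio of 1.47. Among all 36 hexamers they ranked 7 and 9 by number of sites. Of the 11064 sites with a changed base 1, 25.1% had C, 17.0% had G and 57.9% had T. Both strands were used about equally, with 50.7% of CATAAA sites (interval 48.9 to 52.6%) and 50.2% of GATAAA sites (interval 47.98 to 52.5%) on the plus strand.

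The excess of C over G was present on every autosome. The share of CATAAA among sites with a hexamer averaged 2.14% ± 0.230 over autosomes and that of GATAAA 1.44% ± 0.188 (SD, n = 19 each). These spreads are close to the counting error of an autosome of mean size, 0.180 percentage points for CATAAA and 0.148 for GATAAA. The share of CATAAA was highest on chromosome 13, at 2.55%, and lowest on chromosome 9, at 1.83%. GATAAA was highest on chromosome 11, at 1.79%, and lowest on chromosome 13, at 1.17%. Chromosome 13 thus had the highest ratio of CATAAA to GATAAA, 2.18, with 146 and 67 sites, and chromosome 9 the lowest, 1.10, with 131 and 119 sites. The mean log2 ratio was 0.57 ± 0.25 (SD), above 0 on 19 of 19 autosomes (adjusted p = 4e-05, 2-sided permutation test by sign flips). On the X chromosome, which was not in the test, 77 sites listed CATAAA and 57 listed GATAAA.

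**Figure D1:**
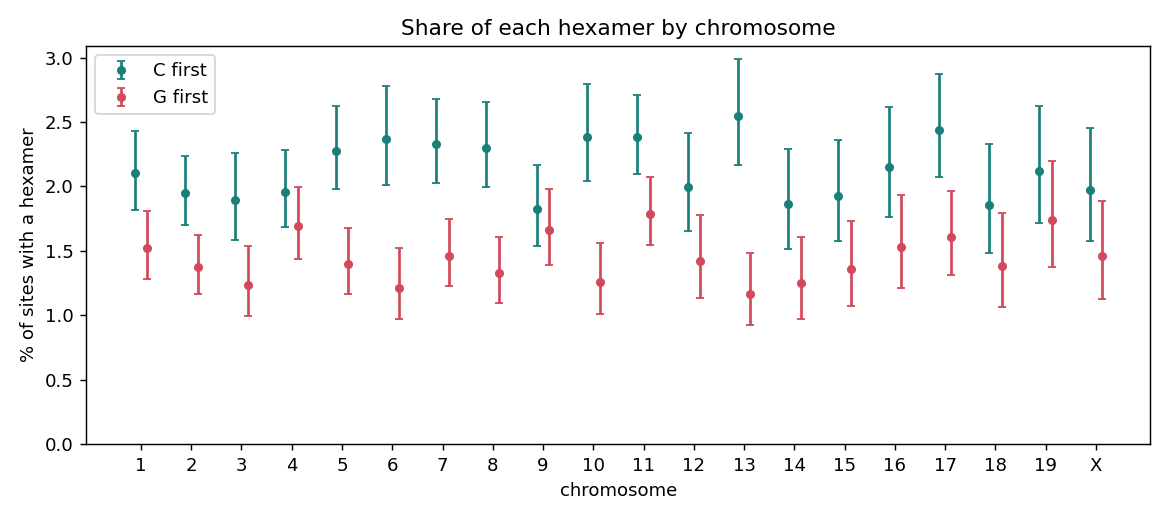
Share of sites with a hexamer that listed the C-first (CATAAA) or the G-first (GATAAA) signal, in percent, on each autosome and the X chromosome, with 95% Wilson intervals as bars. The C-first points lie above the G-first points on all 19 autosomes and come closest on chromosome 9, where the ratio is 1.10.

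A site is listed with a single hexamer, so which of several hexamers near a site was listed bears on every count below. The catalogue itself shows this where neighbouring sites list different hexamers and the hexamer of a neighbour must also lie 6 to 100 nt from the site. For CATAAA there were 93 such cases in which the site listed the other hexamer, and these involved 7 hexamers. AATAAA was listed in 33 of these cases, ATTAAA in 24 and TATAAA in 15, and the rest were spread over 4 hexamers with a change at another base. There were 31 cases in which the site listed CATAAA, and these involved 13 other hexamers, GATAAA and AATGAA most often. No hexamer was found on both sides. GATAAA gave way to the same 7 hexamers and to CATAAA, 8 in all and 79 cases, and was listed before 14 others in 23 cases.

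The nearer hexamer was not always the listed one. Of the 93 in which CATAAA was passed over, it was the nearer hexamer in 9. Of the 31 in which it was listed, the other hexamer was nearer in 6. For GATAAA these numbers were 11 of 79 and 6 of 23. Sites with CATAAA and GATAAA in reach of each other numbered 7, and all 7 listed CATAAA, although GATAAA was nearer in 2 of them. Over all hexamers there were 1442 cases in 267 pairs of hexamers, and 0 pairs were listed both ways. Where this order holds, a site lists CATAAA or GATAAA only if none of the 7 hexamers was found in reach, and GATAAA only if CATAAA was not found either. How many copies of both hexamers were passed over for this reason was not analysed here, because no genome of the build was used, and the part of the order in the excess of C over G was not tested.

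**Figure D2:**
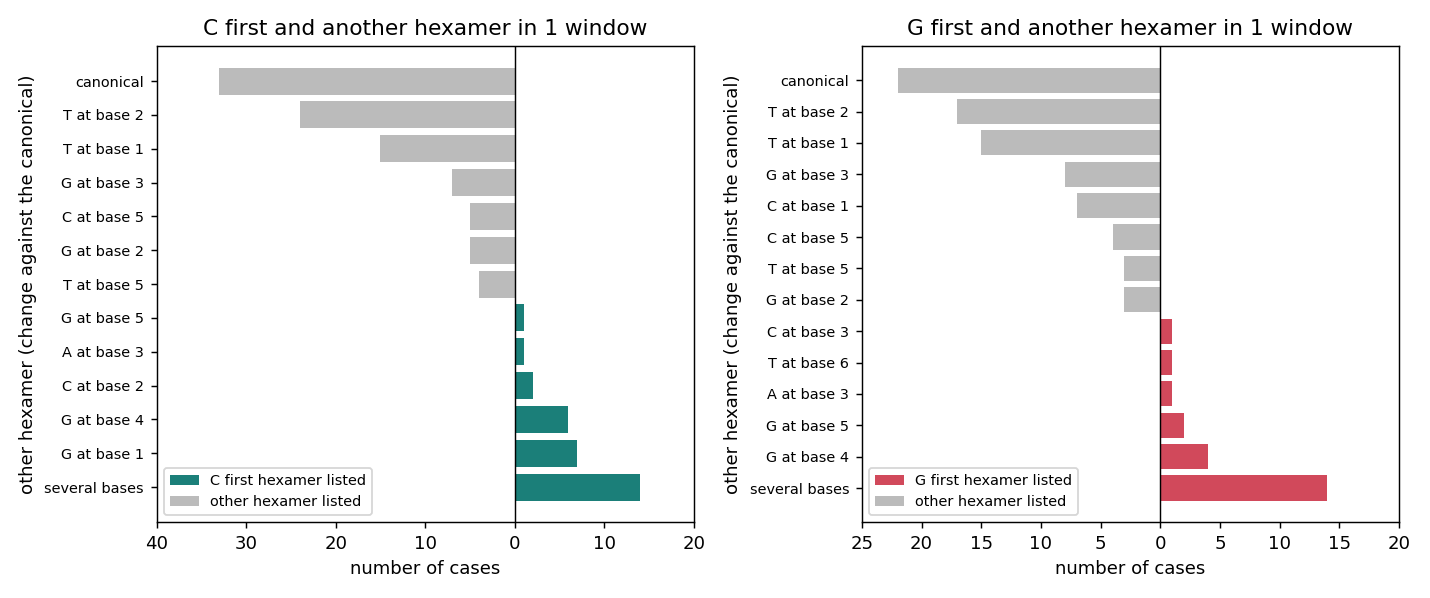
Number of cases in which the C-first (left panel) or G-first (right panel) hexamer and another hexamer lay in reach of 1 site, with bars to the right where the C-first or G-first hexamer was listed and grey bars to the left where the other was. Other hexamers are named by their change against the canonical signal, with those changed at several bases joined. Every row has bars on 1 side only, with the canonical signal listed in 33 cases against C-first and 22 against G-first.

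The distance profiles of the 2 hexamers had nearly the same shape. For CATAAA the median distance was 23 nt, with quartiles at 20 and 31 nt, and the most frequent distance was 21 nt, with 259 sites. GATAAA also had its median at 23 nt, with quartiles at 20 and 32 nt, and was most frequent at 20 nt, with 174 sites. At 15 to 30 nt, the usual place of a poly(A) signal, lay 1976 CATAAA sites, or 71.2% (interval 69.5 to 72.9%), and 1310 GATAAA sites, or 69.5% (interval 67.4 to 71.5%). Inside that window the mean distance was 21.9 nt ± 0.381 for CATAAA and 21.8 nt ± 0.442 for GATAAA (SD over 19 autosomes), a difference of 0.056 nt ± 0.703 (adjusted p = 0.818, permutation test).

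The ratio of CATAAA to GATAAA sites hardly moved with distance in the main window. At 15 to 19 nt it was 1.49, with an exact binomial interval of 1.30 to 1.72. At 20 to 24 nt it was 1.52, with bounds of 1.38 and 1.68, and at 25 to 30 nt it was 1.49, with bounds of 1.27 and 1.74. At 61 to 100 nt it was 1.32, with bounds of 1.12 and 1.56, from 337 CATAAA and 255 GATAAA sites. The far interval overlaps all 3 near ones.

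Over autosomes the share at 15 to 30 nt ran from 64.8 to 77.7% for CATAAA, with a median of 71.0%, and from 56.7 to 76.5% for GATAAA, with a median of 69.2%. The ranges overlap widely. CATAAA was higher on 14 autosomes, with a mean difference of 2.73 percentage points ± 5.88 (SD, n = 19; adjusted p = 0.0976, permutation test). The share at 61 to 100 nt averaged 11.96% for CATAAA and 13.9% for GATAAA, a difference of -1.92 percentage points ± 4.19 (adjusted p = 0.0976, permutation test). It was 0.123 (adjusted p = 0.931, permutation test) on the minus strand alone. Without sites that may list the same hexamer copy as another site it was -2.78. That filter drops 27.9% of CATAAA and 19.6% of GATAAA sites at 61 to 100 nt, against 4.35 and 3.89% at 15 to 30 nt. A lower share for CATAAA was thus in part built in, so no p is given. At 6 to 14 nt the shares were 3.65 and 4.79% (adjusted p = 0.322, permutation test).

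By sites per nt at 15 to 30 nt against 61 to 100 nt, both hexamers stood between TATAAA and AATAAA. The intervals of GATAAA and TATAAA overlap. Sites per nt at 15 to 30 nt were 14.7 times those at 61 to 100 nt for CATAAA (exact binomial interval 13.1 to 16.5) and 12.8 times for GATAAA (interval 11.2 to 14.7), against 10.7 times for TATAAA (interval 9.94 to 11.5) and 57.96 times for AATAAA (interval 55.6 to 60.5). By this ratio CATAAA stood at place 4 and GATAAA at place 6 among 34 hexamers that were listed in each window. The far level per nt times the 16 nt of the main window comes to 134.8 sites for CATAAA, beside the 1976 listed there, and to 102 for GATAAA, beside 1310.

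CATAAA and GATAAA together had 70.2% of sites at 15 to 30 nt per autosome, against 63.8% for TATAAA. Their share was higher on 18 of 19 autosomes, by 6.40 percentage points ± 3.56 on average (SD; adjusted p = 4e-05, permutation test). Their share at 61 to 100 nt was lower than that of TATAAA, 12.7 against 14.8%, by -2.09 percentage points ± 3.55 (adjusted p = 0.036, permutation test). This second call was lost on the minus strand alone, at -0.850 percentage points (adjusted p = 0.686, permutation test). It was also lost without sites that may share a hexamer copy, at -1.10 (adjusted p = 0.199, permutation test). Inside the main window the mean distance differed from that of TATAAA by -0.0156 nt ± 0.290 (adjusted p = 0.881, permutation test). TATAAA was listed before CATAAA in 15 cases and before GATAAA in 15, with 0 the other way. The part of that order in these differences was not tested.

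Against AATAAA, which had 79.7% at 15 to 30 nt, the members were lower by -9.50 percentage points ± 3.72 on 19 of 19 autosomes (adjusted p = 4e-05, permutation test). At 61 to 100 nt they had 12.7% against 3.45%, a difference of 9.25 percentage points ± 2.56 with the same sign on all 19 (adjusted p = 4e-05, permutation test). AATAAA was listed before CATAAA and GATAAA in every case above, and the part of that order in these differences was not tested. Within the main window the members lay slightly farther away, at 21.8 nt against 21.5 nt for AATAAA, by 0.310 nt ± 0.229 (adjusted p = 7e-05, permutation test). With the plus strand alone it was 0.218 nt (adjusted p = 0.0952, permutation test).

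**Figure D3:**
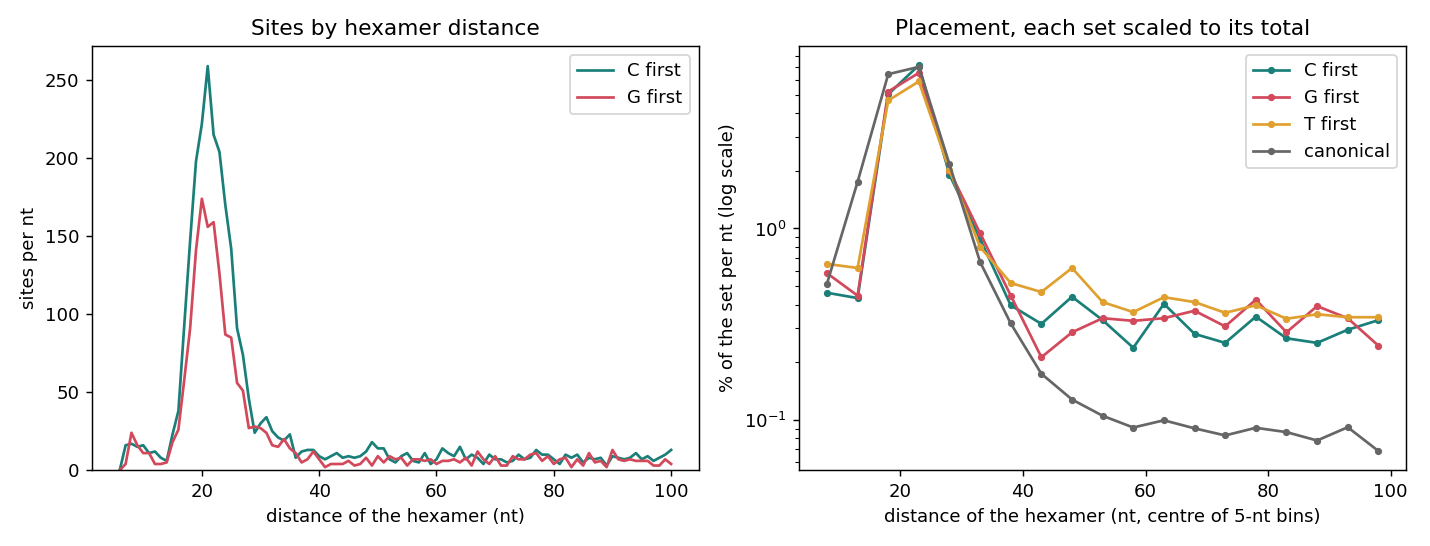
Left, number of sites at each hexamer distance in nt for the C-first (CATAAA) and G-first (GATAAA) signals. Right, percent of each set per nt, averaged over bins of 5 nt, on a log scale, with T-first (TATAAA) and canonical (AATAAA) added. The C-first and G-first lines peak at 21 and 20 nt, and beyond 60 nt the canonical line lies below the other lines.

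Close to the site the members had no counterpart of the AATAAA peak at 11 nt. CATAAA and GATAAA were listed at 11 nt for 11 sites each, against 2409 for AATAAA. Each had a small shoulder at 7 to 10 nt, with 16 CATAAA sites per nt (exact Poisson interval 12.3 to 20.4) and 13.75 GATAAA sites per nt (interval 10.4 to 17.9), above their levels of 8.43 and 6.38 per nt at 61 to 100 nt. At 12 to 14 nt the levels were 8.67 and 4.33 per nt. TATAAA also had such a shoulder, with 52.25 sites per nt at 7 to 10 nt, 28.3 at 12 to 14 nt and 23.9 at 61 to 100 nt. The share at 6 to 14 nt was 4.05% for both hexamers together against 9.45% for AATAAA, a difference of -5.40 percentage points ± 1.65 (adjusted p = 4e-05, permutation test). Without sites at 11 nt, an alternative chosen after seeing the data, it was -2.49, and at 6 to 10 nt alone 0.103 (adjusted p = 0.816, permutation test). Against TATAAA the share at 6 to 14 nt was lower by -1.40 percentage points ± 1.58 (adjusted p = 0.00252, permutation test), a call lost on the plus strand alone (-1.13, adjusted p = 0.198, permutation test).

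CATAAA and GATAAA sites mostly lay among other poly(A) sites. The median gap to the nearest site of the same strand was 275 nt for CATAAA (quartiles 80 and 1444 nt) and 244 nt for GATAAA (quartiles 75 and 1102 nt), against 220 nt for TATAAA and 1272 nt for AATAAA. A site of the same strand lay within 1 kb of 69.3% of CATAAA sites (interval 67.5 to 71.0%) and of 73.5% of GATAAA sites (interval 71.5 to 75.5%). Per autosome these shares ran from 60.2 to 81.0% (median 69.0%) for CATAAA and from 66.2 to 86.96% (median 73.9%) for GATAAA.

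This share was the only one of the 9 properties other than number that passed the test between the 2 hexamers. It was lower for CATAAA by -4.85 percentage points ± 7.86 (SD, n = 19), on 14 of 19 autosomes (adjusted p = 0.0272, permutation test). With either strand alone the call was lost, at -5.55 (adjusted p = 0.0643, permutation test) on the plus strand and -3.77 (adjusted p = 0.198, permutation test) on the minus strand, and with neighbours within 0.2 kb it was -1.62 (adjusted p = 0.322, permutation test). Against AATAAA the share of both hexamers together was higher by 24.5 percentage points ± 2.63, 70.8 against 46.3%, on 19 of 19 autosomes (adjusted p = 4e-05, permutation test). Against TATAAA, with 72.2%, the difference was -1.37 ± 4.90 (adjusted p = 0.322, permutation test).

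**Figure D4:**
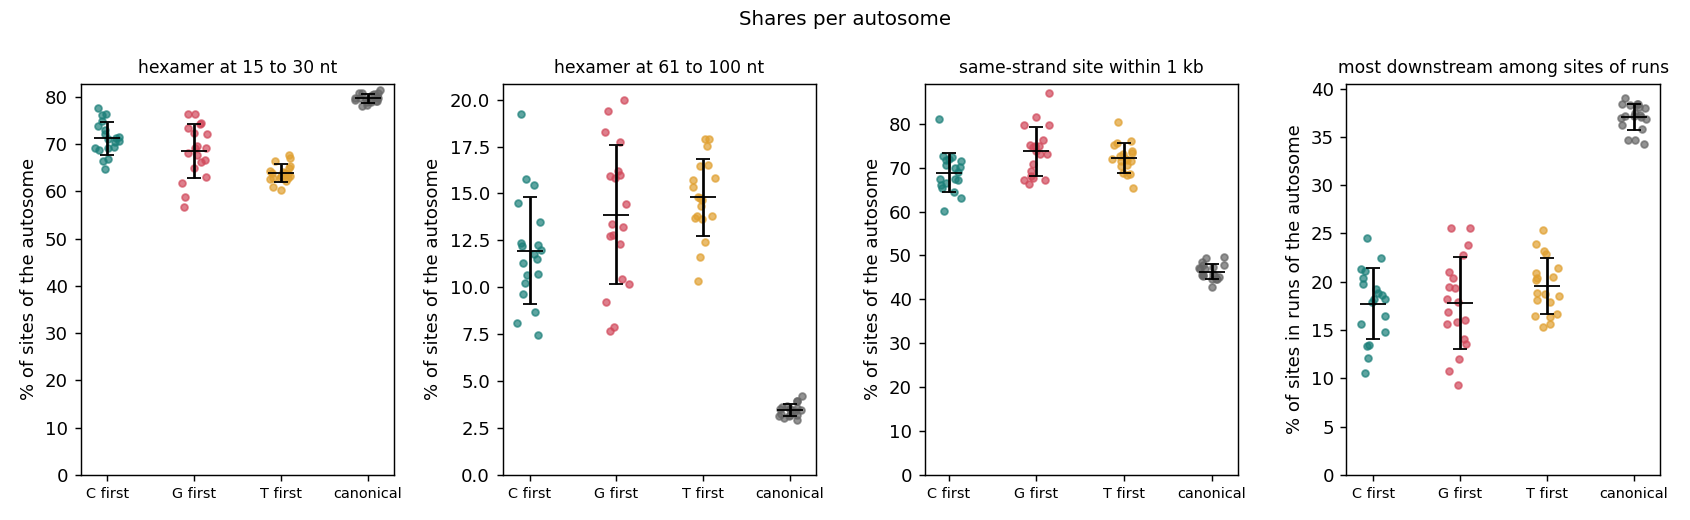
Percent of sites on each of the 19 autosomes (points), with mean and SD (black), for the C-first (CATAAA), G-first (GATAAA), T-first (TATAAA) and canonical (AATAAA) signals: hexamer at 15 to 30 nt, hexamer at 61 to 100 nt, a site of the same strand within 1 kb, and place as the most downstream site among sites in runs. In all 4 panels the C-first and G-first points overlap, and the means of both lie apart from the canonical mean.

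Most CATAAA and GATAAA sites were followed by a further site downstream. Sites of a strand were joined into runs with gaps of at most 2 kb. Then 592 CATAAA sites (21.3%) and 357 GATAAA sites (18.9%) stood alone, against 20.6% of TATAAA and 43.1% of AATAAA sites. Runs held 2183 CATAAA and 1528 GATAAA sites, with a median of 5 sites in the run for both. Runs of 10 or more sites held 17.1% of CATAAA and 18.1% of GATAAA sites, against 17.6% of TATAAA and 6.90% of AATAAA sites. Of CATAAA sites in runs 27.5% were the most upstream, 54.4% in the middle and 18.1% the most downstream (interval 16.5 to 19.8%). For GATAAA these shares were 27.6%, 54.8% and 17.5% (interval 15.7 to 19.5%). For TATAAA they were 23.2%, 57.1% and 19.6%.

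Over autosomes the share that was most downstream averaged 17.7% ± 3.68 for CATAAA and 17.8% ± 4.74 for GATAAA, a difference of -0.0406 percentage points ± 4.64 (adjusted p = 0.971, permutation test). For both together it was 17.8% against 37.1% for AATAAA, lower by -19.3 percentage points ± 3.43 on 19 of 19 autosomes (adjusted p = 4e-05, permutation test). TATAAA had 19.5%, and the members' difference from it was -1.75 ± 4.79 (adjusted p = 0.188, permutation test), or -2.28 (adjusted p = 0.0076, permutation test) with runs joined over 5 kb. Runs are set by distance alone and may join sites of different genes.

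**Figure D5:**
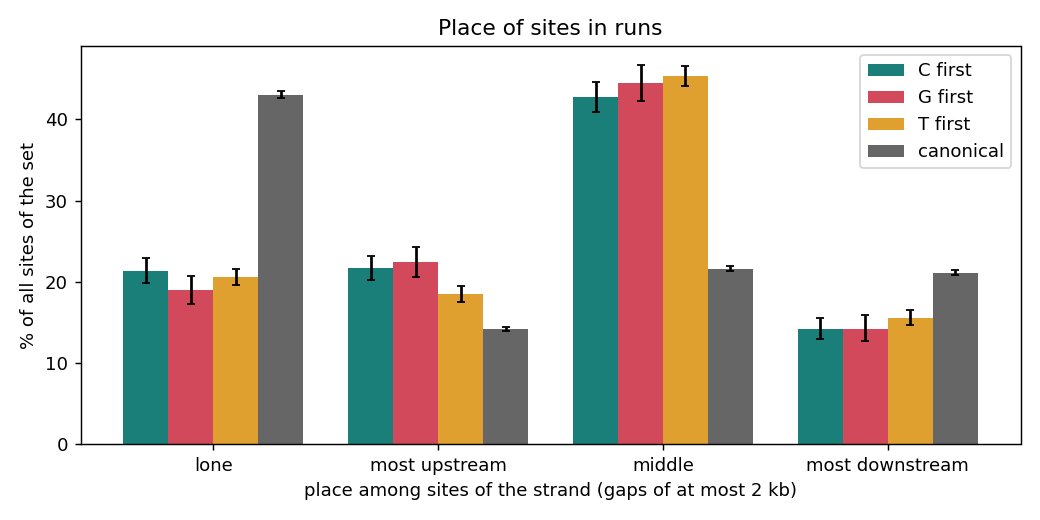
Percent of all C-first (CATAAA), G-first (GATAAA), T-first (TATAAA) and canonical (AATAAA) sites that stood alone or were the most upstream, a middle or the most downstream site of a run, with 95% Wilson intervals as bars. Of canonical sites 43.1% stood alone, against 21.3% of C-first, 18.9% of G-first and 20.6% of T-first sites.

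The runs that held these sites mostly ended at the canonical or the main variant signal, as did those of TATAAA and AATAAA sites. Over the whole catalogue 13769 of 25530 runs ended with AATAAA, counted per run and not per site. Of the 1788 CATAAA sites with a further site downstream in the run, 895 (50.1%) were in a run whose last site listed AATAAA and 302 (16.9%) in one that ended with ATTAAA, the main variant signal. Of 1260 such GATAAA sites the numbers were 638 (50.6%) and 221 (17.5%). TATAAA sites had 52.9% and 17.3%, and AATAAA sites themselves 57.2% and 16.7%.

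The next site also differed by side. Downstream of CATAAA the next site in the run listed AATAAA in 34.7% of cases (interval 32.5 to 36.9%), and upstream in 25.4% (interval 23.3 to 27.6%). For GATAAA these were 32.8 and 25.5%. Over all sites of the catalogue the next site listed AATAAA in 38.6% of cases downstream and 32.4% upstream. A next site with no hexamer was less frequent downstream than upstream for both, with 9.73 and 13.97% for CATAAA and 11.2 and 15.0% for GATAAA. The same held over all sites of the catalogue, with 12.6% downstream and 15.5% upstream.

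Close neighbours with AATAAA or ATTAAA were counted on each side of the members. Within 100 nt, 200 CATAAA sites (7.21%) had such a neighbour downstream and 85 (3.06%) upstream. GATAAA sites had 146 (7.75%) and 64 (3.40%). TATAAA sites had 9.31% downstream and 4.45% upstream, also more downstream, and AATAAA sites had 5.37% downstream and 6.10% upstream. A close upstream neighbour's AATAAA or ATTAAA can lie in reach of the site itself, where it was listed before CATAAA and GATAAA in every case found. The upstream counts of the members are therefore limited by how sites were listed, and their difference from AATAAA on that side is no test. The share with both sides counted includes that upstream part, so it is no test against AATAAA either. It was 10.5% for the members and 10.96% for AATAAA, a difference of -0.503 percentage points ± 2.20. Its sign depended on the setting. It was -2.12 with neighbours within 50 nt. It was -2.34 among lone and most downstream sites, which have no downstream site within 2 kb, so only upstream neighbours were counted. It was 3.24 with neighbours within 200 nt and 3.77 without sites that may share a hexamer copy. That last filter drops AATAAA sites for a close AATAAA neighbour, but members only for a close site with the same member hexamer. A higher value was therefore built in. On the downstream side alone the members were higher than AATAAA by 2.17 percentage points ± 1.54, on 18 of 19 autosomes (adjusted p = 0.000153, permutation test). That side alone was an alternative chosen after the listing order had been seen. A same-strand site with any listing was also more frequent within 100 nt downstream of the members. It was found for 18.8% of CATAAA and 19.4% of GATAAA sites, against 7.26% of AATAAA sites. Whether the higher share with AATAAA or ATTAAA goes beyond this difference was not tested. With AATAAA or ATTAAA neighbours on both sides counted, TATAAA had 13.2%. The members were lower than TATAAA by -2.73 ± 2.90 on 17 of 19 autosomes (adjusted p = 0.00203, permutation test). Among lone and most downstream sites, where only upstream neighbours can be counted, this was -0.991 (adjusted p = 0.149, permutation test). A same-strand site with any listing lay within 100 nt of 30.2% of the members and of 35.2% of TATAAA sites. Whether the members' lower share with AATAAA or ATTAAA goes beyond this was not tested.

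Repeats of the same hexamer in adjacent sites were largely listings that may point to the same copy. Of 139 adjacent CATAAA pairs in runs, 38 had positions that allow no shared copy, and of 83 GATAAA pairs 27 did. With the other same-hexamer pairs left out, a CATAAA site was followed by another CATAAA site in 2.25% of cases (interval 1.65 to 3.08%) and a GATAAA site by GATAAA in 2.24% (interval 1.55 to 3.24%). Over all sites the next site downstream listed CATAAA in 2.19% and GATAAA in 1.53% of cases. These 2 shares keep the pairs that may share a copy, so they are not like measures. The 2 hexamers occurred in 1946 and 1394 runs, and 182 runs held both. No run held more than 4 CATAAA or 3 GATAAA sites.

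Far listings had a neighbour upstream more often than near ones. Of the 592 members listed at 61 to 100 nt, 36.8% had a same-strand site within 100 nt upstream, against 12.3% of the 3286 members at 15 to 30 nt. Per autosome this difference was 25.05 percentage points ± 11.7 (SD, n = 19), with the same sign on every autosome. Where close sites list the same copy, the more downstream one has both a farther listing and an upstream neighbour. Part of the difference is thus built in, so no p is given, and the rest was not tested. On the downstream side the difference was 3.42 ± 4.77, positive on 13 (adjusted p = 0.0198 over 8 comparisons within the members, permutation test). Of far listings, 94 CATAAA sites (27.9%) and 50 GATAAA sites (19.6%) may have listed the same copy as another site, against 4.35 and 3.89% of near listings. The same contrast in neighbours was present in the other sets, with a site within 100 nt upstream of 40.9% of far and 16.4% of near TATAAA sites and of 58.3% of far and 8.15% of near AATAAA sites. These comparisons were added after the catalogue had been seen.

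The share at the usual distance was also set out by place in the run. At 15 to 30 nt lay 73.2% of CATAAA sites that were most downstream, 68.1% of those in the middle, 76.2% of the most upstream and 71.1% of lone sites. For GATAAA these shares were 72.4, 67.4, 70.9 and 70.6%. The most downstream members differed from the most upstream ones by -1.65 percentage points ± 9.16 (adjusted p = 0.569, permutation test) and from lone members by 0.800 ± 8.88 (adjusted p = 0.702, permutation test).

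Cluster widths were close to those of the other sets. The median width was 9 nt for CATAAA and 9 nt for GATAAA (quartiles 3 and 20 nt for both), against 9 nt for TATAAA and 10 nt for AATAAA. A width of 1 nt was found for 13.4% of CATAAA and 14.1% of GATAAA sites, against 13.3% of TATAAA and 9.94% of AATAAA sites. Clusters over 50 nt made up 4.86% of CATAAA sites (interval 4.12 to 5.73%) and 5.52% of GATAAA sites (interval 4.57 to 6.64%), against 5.09% of TATAAA and 4.02% of AATAAA sites (interval 3.87 to 4.17%). On the log2 scale the members were narrower on average than AATAAA by -0.18 ± 0.13 (SD), on 18 autosomes (adjusted p = 0.000168, permutation test), and by -0.046 among clusters wider than 1 nt (adjusted p = 0.125, permutation test). The 2 hexamers differed by -0.030 ± 0.26 (adjusted p = 0.751, permutation test). Against TATAAA the difference was -0.081 ± 0.13 (adjusted p = 0.0252, permutation test), and it was lost on each strand alone.

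Many promoters also give short transcripts in the opposite direction that end at poly(A) signals, so partners on the other strand were counted. A pair was called divergent if its plus-strand end had the higher coordinate, which gives the order of the ends only. At 1 to 3 kb 15.6% of CATAAA sites and 15.2% of GATAAA sites had a divergent partner, against 13.04% of TATAAA and 13.3% of AATAAA sites. The members were higher than AATAAA by 2.29 percentage points ± 2.20, on 17 autosomes (adjusted p = 0.000168, permutation test). They were higher than TATAAA by 2.51 ± 2.33, on 16 autosomes (adjusted p = 0.000993, permutation test). On the plus strand alone neither call held, with 1.37 (adjusted p = 0.152, permutation test) and 0.812 (adjusted p = 0.471, permutation test). CATAAA and GATAAA differed by -0.197 ± 5.75 (adjusted p = 0.916, permutation test).

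Some sites illustrate these settings, in mm9 coordinates counted from 1. The widest CATAAA cluster with its hexamer in the main window lay on the minus strand of chromosome 2 from 26493563 to 26493803, was 241 nt wide, had its hexamer at 22 nt and was number 5 of 11 sites in a run that ended with AATAAA. The widest such GATAAA cluster lay on the minus strand of chromosome 13 from 21878111 to 21878498, was 388 nt wide with the hexamer at 24 nt, and was followed 87 nt downstream by another GATAAA site. The longest run with a CATAAA site had 76 sites over 14849 nt on the minus strand of chromosome 1. It held 2 CATAAA sites, and 1 of them, from 88242819 to 88242845, was number 62. The longest run with a GATAAA site had 49 sites over 13551 nt on the minus strand of chromosome 6, where the site from 51412646 to 51412652 lay between AATAAA sites 91 nt upstream and 46 nt downstream. The closest pair of both hexamers was on the plus strand of chromosome 9. A CATAAA site from 64030210 to 64030221, with its hexamer at 25 nt, lay 29 nt downstream of a GATAAA site from 64030178 to 64030180, with its hexamer at 17 nt, and the run ended 232 nt farther on with ATTAAA. No annotation of this build was used, so the genes at these positions were not analysed here.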

How the data were processed

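The authors deposited 1 table of poly(A) sites, with positions in nt, strand, hexamer and hexamer distance in nt, per the file headers. The submitters' processing notes name Trimmomatic, STAR, bedtools and the mm9 build, without versions. How clusters were formed, from which libraries, whether ends primed within A-rich sequence were removed, and from which point distances were counted is not given in the sources used here. Such priming gives false 3′ ends, and the values include any that were kept. Columns of other per-sample values numbered 0.

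Starts were read as counted from 0. Gaps were measured between cluster edges on 1 strand, and opposite-strand separations between midpoints. For the listing order, a neighbour's hexamer counted as in reach only if it lay at 6 to 100 nt wherever in either cluster the distance was counted from. A shared copy was possible where the same ranges met. Shares have 95% Wilson intervals, ratios exact binomial ones and counts per nt exact Poisson ones. They cover counting error only and treat neighbouring sites as independent. Differences between sets were means over 19 autosomes of per-autosome differences, tested by 2-sided sign-flip permutation (100000 resamples, smallest possible p 1e-05, seed 1) with Benjamini-Hochberg adjustment over 28 comparisons, at a threshold of 0.05. The 8 comparisons within the members were adjusted among themselves. Both procedures were tested on simulated data. Named sites were, for each hexamer, the widest cluster with the hexamer at 15 to 30 nt and the site in the longest run, and the closest pair of both, none on chromosome 18. Members, sets and windows were chosen with earlier results of these data known. Alternatives were 1 strand, width limits, the last site of each run with lone sites, no possibly shared copies, pooling over sites, and other windows and gaps. Tests ran in numpy 2.4.6 and intervals came from scipy 1.17.1, with tables held in pandas 2.3.3 and figures drawn by matplotlib 3.10.9 under Python 3.11.15.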

Additional observations from a re-analysis of the deposited data

How the results depend on the processing

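No paired analysis was possible because the catalogue holds no value of a library. Of 210 values recomputed under alternatives with a test, 164 kept direction and side of the threshold. All 27 values pooled over sites, which have no test, moved by less than the SD over autosomes, but 2 of them turned sign, for CATAAA against GATAAA: 0.555 in the most downstream share and 0.414 in divergent partners. Of 16 results that passed the test, 6 kept their direction under every alternative run and their call under every one with a test: the log2 ratio of CATAAA to GATAAA, the share at 15 to 30 nt of both hexamers against TATAAA and against AATAAA, and against AATAAA their shares at 61 to 100 nt, within 1 kb of a site and most downstream in runs. The other values that changed follow, as differences in percentage points unless a unit is given, with p adjusted over 28 comparisons. The cause was not tested.

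Against AATAAA, a canonical or main variant neighbour gave 2.17 (permutation p = 0.000153) downstream and -2.87 upstream, both chosen after seeing the data. With both sides counted it gave 0.247 on the minus strand, 3.24 within 200 nt, -2.12 within 50 nt and 3.77 without possibly shared hexamers. Among lone and most downstream sites, where only upstream neighbours can be counted, it gave -2.34. Apart from the downstream value these are no tests, because the listing order limits the upstream side, so no p is given. The value of 3.77 was also raised by its filter. A divergent partner gave 1.37 (permutation p = 0.152) on the plus strand and 2.41 (p = 0.0511) among lone and most downstream sites. The mean distance gave 0.218 nt (permutation p = 0.0952) on the plus strand, the log2 width -0.046 (p = 0.125) above 1 nt, and the share at 6 to 10 nt 0.103 (p = 0.816).

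Both hexamers against TATAAA changed on the plus strand in log2 width (-0.11, permutation p = 0.0967), in the share at 6 to 14 nt (-1.13, p = 0.198) and in divergent partners (0.812, p = 0.471). On the minus strand the log2 width gave -0.051 (permutation p = 0.509) and the share at 61 to 100 nt -0.850 (p = 0.686). Among lone and most downstream sites the values were -0.037 for log2 width (permutation p = 0.612), -0.509 at 6 to 14 nt (p = 0.612), -1.92 at 61 to 100 nt (p = 0.194), -0.991 for canonical neighbours (p = 0.149) and 1.24 for divergent partners (p = 0.547). Clusters above 1 nt gave -0.062 in log2 width and -2.12 at 61 to 100 nt (permutation p = 0.102 for both), and their share gave -0.805 (p = 0.381). Without possibly shared hexamers the share at 61 to 100 nt gave -1.10 (permutation p = 0.199) and the mean distance 0.0059 nt (p = 0.962), which was 0.163 nt (p = 0.194) at 10 to 35 nt. The share at 6 to 10 nt gave -0.637 (permutation p = 0.0841), a site within 0.2 kb -3.83 (p = 0.00574) and within 5 kb 0.345 (p = 0.681), and the most downstream share -2.28 (p = 0.0076) with runs joined over 5 kb.

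CATAAA against GATAAA changed on the minus strand at 15 to 30 nt (-0.455, permutation p = 0.866), at 61 to 100 nt (0.123, p = 0.931), in the most downstream share (3.02, p = 0.318), in canonical neighbours (0.515, p = 0.866) and within 1 kb of a site (-3.77, p = 0.198). On the plus strand the share within 1 kb gave -5.55 (permutation p = 0.0643) and divergent partners 1.46 (p = 0.487). A site within 0.2 kb gave -1.62 (permutation p = 0.322) and canonical neighbours within 50 nt 0.0728 (p = 0.965). The most downstream share gave 0.340 (permutation p = 0.833) up to 50 nt of width and 0.272 (p = 0.831) above 1 nt, and the share of clusters above 1 nt gave 0.507 (p = 0.818). Divergent partners among lone and most downstream sites gave 0.206 (permutation p = 0.927). Without possibly shared hexamers the share at 61 to 100 nt gave -2.78. No p is given, because that filter drops far CATAAA sites more often than far GATAAA sites. Read depth is unknown.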

Other observations

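At 31 to 60 nt as a whole CATAAA was listed for 361 sites and GATAAA for 241, a ratio of 1.498 (exact binomial interval 1.27 to 1.77), close to the 1.51 at 15 to 30 nt. Within that stretch, 3 smaller bins from 41 to 60 nt gave ratios of 1.12 to 2.32, with intervals that overlap. At 41 to 47 nt CATAAA was listed for 61 sites and GATAAA for 27, a ratio of 2.26 (bounds 1.41 and 3.70), and at 48 to 51 nt for 58 and 25, a ratio of 2.32 (bounds 1.43 and 3.87). At 52 to 60 nt the numbers were 65 and 58, a ratio of 1.12 (bounds 0.774 and 1.63). CATAAA had 14.5 sites per nt at 48 to 51 nt, with an exact Poisson interval of 11.01 to 18.7, and 7.22 at 52 to 60 nt, with bounds of 5.57 and 9.21. TATAAA had 42.25 sites per nt in the nearer of these bins and 24.1 in the farther one. The 3 smaller bins were chosen after the profile had been seen, and their ratios were not tested.

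A few members fell outside the counts above. The rule left out 4 mitochondrial sites, 2 with each hexamer. Sequences not placed on an autosome or the X chromosome held 2 CATAAA and 7 GATAAA sites, which entered the pooled shares but no test. A cluster on the opposite strand overlapped 39 CATAAA sites (1.41%) and 30 GATAAA sites (1.59%), against 1.45% of TATAAA and 1.78% of AATAAA sites.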
